A study of Rattus norvegicus with 9 samples.

Results

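The 10 genes described here belong to the transforming growth factor beta (TGF-β) and bone morphogenetic protein (BMP) pathways: the ligands Tgfb1, Tgfb2, Tgfb3, Bmp2 and Bmp4, the activin subunit gene Inhba, the receptors Tgfbr1, Tgfbr2 and Bmpr1a, and the BMP antagonist Grem1. They were taken by symbol from the gene list of the count matrices, and all 10 of 10 were found among 41801 listed genes. As background, these ligands are secreted as dimers that bring together type I and type II receptor kinases at the cell surface, and the type I receptor then phosphorylates Smad proteins, with one set of Smads downstream of TGF-β and activin and another downstream of BMPs. TGF-β is made in a latent form, is stored in large amounts in bone matrix and also restrains lymphocytes and blood progenitors, while BMPs drive cartilage and bone formation during repair. Secreted antagonists such as gremlin 1 bind BMPs and keep them from their receptors.

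The tissue came from the proximal tibia of male Sprague-Dawley rats of 6 to 8 weeks, all of which carried a circular cortical osteotomy of the tibia and a full-thickness skin wound on the back of the foot. In the TO group the osteotomy received nothing further, and in the TOE group it received radial extracorporeal shock waves (rESWT) on days 2 and 4. The TOE libraries of day 2 were taken before the day 4 session, so they followed only 1 session. The osteotomy site was dissociated 4 or 24 h after a session, or at matching times without one in TO, with 1 TO library taken at 0 h on day 2. Single cells were sequenced on the 10x Chromium platform from the 3′ ends of transcripts. Libraries are named by group, day and hours: TO 2d 0h, TO 2d 4h, TO 4d 4h, TO 4d 24h, TOE 2d 4h, TOE 2d 24h, TOE 4d 4h and TOE 4d 24h. The TO library of 2d 24h is not analysed here. Each condition was 1 library, so the pairs that share day and hours (2d 4h, 4d 4h, 4d 24h) hold 1 library against 1 and no difference within a pair has a replicate check.

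After filtering and removal of doublets, 110488 of 116711 barcodes remained, from libraries of 95954800 to 144146202 unique molecular identifiers (UMIs, each standing for 1 captured RNA molecule). No pair of libraries shared more than 0.783% of the barcodes of the smaller one. Cells were clustered without the 10 genes, and clusters were named from marker genes. The B-cell-like class was the largest with 59197 cells, and the mesenchymal-like class, named from markers such as Col1a1, Dcn, Pdgfra and Cxcl12, held 1290. Of these, 214 lay in 4 subclusters led by blood-cell genes. Its collagen gene Col1a1 stood at 45869 CPM (UMIs of the gene per 1e+06 UMIs of the class), against 138 CPM in B-cell-like cells. The endothelial-like class held 460 cells and included most of a small pericyte-like group. Some clusters were kept under the name of a leading gene. Of these, the RatNP-3b cluster (2496 cells) was led by neutrophil defensin genes and the Siglech cluster (2181 cells) by Siglech and Flt3. The Igha cluster (4390 cells) was led by antibody genes and by B-cell genes such as Ms4a1. The B-cell marker Cd79a stood at 3244 CPM in it, against 1740 CPM in B-cell-like cells. Another 4 unnamed clusters (6437 cells) were left out of the orders and pairs, among them a second Igha-led one of 3975 cells with a median of only 790 UMIs. In B-cell-like cells, which should lack it, Col1a1 reached 432 CPM in TOE 2d 24h, against 38.0 to 221 CPM in the other 7 libraries.

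The members were found in different compartments. Of the 10 members, 6 had their highest median level over libraries in the mesenchymal-like class: Tgfb2, Tgfb3, Bmp2, Bmp4, Bmpr1a and Grem1. Tgfb1 was highest in T/NK-cell-like cells, Tgfbr1 in macrophage-like cells, Tgfbr2 in the Igha cluster and in B-cell-like cells, and Inhba in the RatNP-3b cluster. Each class was compared with the next in the order by an exact two-sided sign-flip test over libraries, 82 tests in all. None passed an adjusted p of 0.05 (Benjamini-Hochberg), the smallest being an adjusted p = 0.0557 in this exact test, and 34 had an unadjusted p below 0.05. With doublets kept, other clustering resolutions or a larger prior count, 12 to 28 passed. Differences below are therefore given with the number of libraries that showed them. The libraries may come from single rats, and p-values measure only the spread between libraries.

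**Figure D1:**
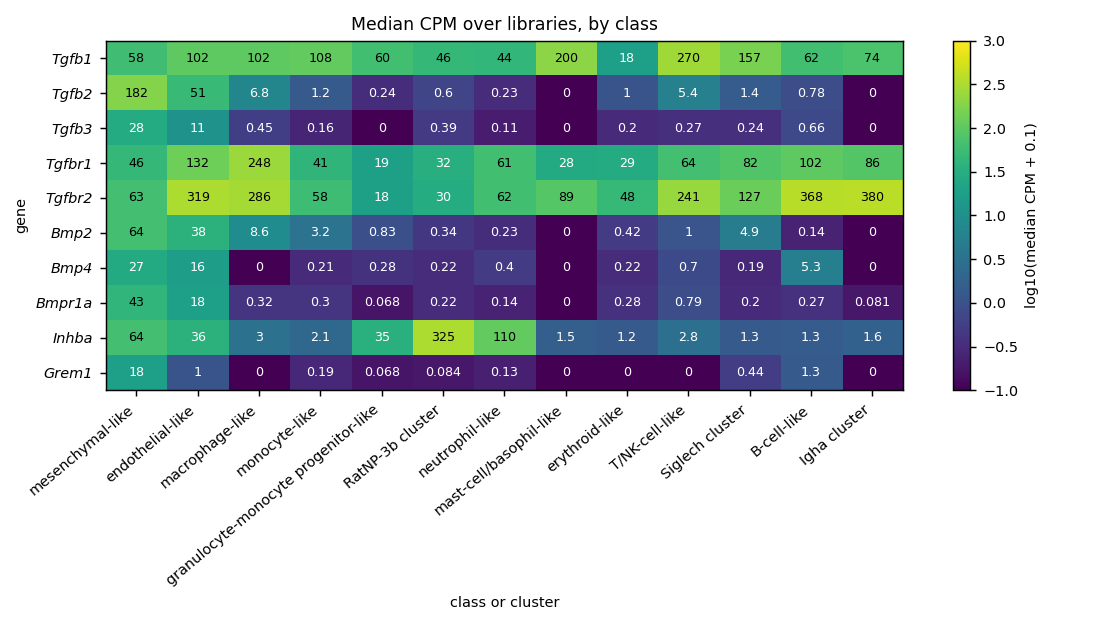
Median CPM over libraries of each gene (rows) in each class or cluster (columns), with the value printed and log10 of the value plus 0.1 as colour. The mesenchymal-like column holds the highest value of 6 genes, T/NK-cell-like cells hold the highest value of Tgfb1, and the RatNP-3b cluster holds that of Inhba.

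Tgfb1, the isoform best known from immune cells and platelets, was read throughout the blood lineages. In T/NK-cell-like cells it stood at 316 CPM in TO 2d 0h, 317 in TO 2d 4h, 203 in TO 4d 4h, 312 in TO 4d 24h, 156 in TOE 2d 4h, 302 in TOE 2d 24h, 179 in TOE 4d 4h and 237 in TOE 4d 24h. The 2 TOE libraries taken at 4 h were the lowest, and the 4 libraries of each group overlapped. Mast-cell/basophil-like cells followed at a median of 200 CPM, below T/NK-cell-like cells in 6 of 8 libraries (adjusted p = 0.198, exact sign-flip test). The Siglech cluster came next with 157 CPM and stood above monocyte-like cells, at 108 CPM, in 8 of 8 libraries. Mesenchymal-like cells had a median of 58.3 CPM, and erythroid-like cells the lowest, 18.2 CPM. By number of molecules, B-cell-like cells held 35% and monocyte-like cells 25.7% of all Tgfb1 UMIs, against 4.78% in neutrophil-like cells.

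Tgfb2, an isoform of skeletal and vascular mesenchyme, was concentrated in the stroma. Mesenchymal-like cells had 133 CPM in TO 2d 0h, 165 in TO 2d 4h, 212 in TO 4d 4h, 71.0 in TO 4d 24h, 238 in TOE 2d 4h, 208 in TOE 2d 24h, 199 in TOE 4d 4h and 153 in TOE 4d 24h. TO 4d 24h was the lowest, and the ranges of both groups overlapped. The level exceeded that of endothelial-like cells in 7 of 7 libraries with at least 20 cells of each class, by 1.64 on the log2 scale (adjusted p = 0.0557, exact sign-flip test). Macrophage-like cells had a median of only 6.84 CPM. In TOE 2d 24h, B-cell-like cells showed 3.21 CPM of Tgfb2, where the ratio of Tgfb2 to Col1a1 in mesenchymal-like cells would give 2.93 CPM. In the other 7 libraries they showed 0.442 to 1.29 CPM, where that ratio would give 0.0943 to 0.464 CPM.

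Tgfb3, the third isoform, followed the same classes at a median of 28.4 CPM in mesenchymal-like and 10.7 CPM in endothelial-like cells, higher in the former in 7 of 7 libraries. Its mesenchymal-like levels were 26.0 CPM in TO 2d 0h, 28.8 in TO 2d 4h, 78.6 in TO 4d 4h, 12.4 in TO 4d 24h, 47.4 in TOE 2d 4h, 28.0 in TOE 2d 24h, 37.1 in TOE 4d 4h and 17.2 in TOE 4d 24h. All 4 libraries taken at 4 h lay above the other 4, but only narrowly, with 28.8 CPM in TO 2d 4h against 28.0 CPM in TOE 2d 24h. The share of all genes that separated in this way was not counted. Every other class in the order had a median below 1 CPM. The endothelial-like class included 84 pericyte-like cells, which held 141 of its 169 Tgfb3 UMIs, at 50.5 CPM pooled over libraries, against 4.04 CPM in its other 376 cells.

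Tgfbr1, the type I kinase of TGF-β, was highest in macrophage-like cells, with 113 CPM in TO 2d 0h, 316 in TO 2d 4h, 299 in TO 4d 4h, 154 in TO 4d 24h, 273 in TOE 2d 4h, 179 in TOE 2d 24h, 236 in TOE 4d 4h and 261 in TOE 4d 24h. TO 2d 0h and TO 4d 24h were the lowest. The value of TOE 4d 24h came from 97 UMIs in 36 cells, and 1 cell held 33% of them. Macrophage-like cells exceeded endothelial-like cells, at a median of 132 CPM, in 7 of 7 libraries by 1.02 on the log2 scale. B-cell-like cells had a median of 102 CPM and held 53.3% of all Tgfbr1 UMIs. They could not be ordered against endothelial-like cells, which were higher in 4 of 7 libraries (log2 difference 0.004).

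Tgfbr2, the type II receptor that binds TGF-β first, was a B-lineage transcript by amount: B-cell-like cells held 70.1% of its UMIs. Their level was 391 CPM in TO 2d 0h, 443 in TO 2d 4h, 322 in TO 4d 4h, 401 in TO 4d 24h, 288 in TOE 2d 4h, 475 in TOE 2d 24h, 344 in TOE 4d 4h and 166 in TOE 4d 24h. TOE 4d 24h was far below the other 7. The Igha cluster and B-cell-like cells could not be ordered, with the former higher in 5 of 8 libraries (adjusted p = 0.756, exact sign-flip test), and endothelial-like (319 CPM) and macrophage-like cells (286 CPM) lay close behind. The Igha cluster had 1305, 1411 and 1392 cells in TO 2d 0h, TO 4d 24h and TOE 2d 24h, but only 26 to 81 in each other library. Within the B-cell-like class the level pooled over libraries ran from 192 CPM in the Ms4a6b-led cluster, of which TOE 4d 24h gave 58.8% of the cells, to 578 CPM in the cluster led by Rpl3l. By library the Ms4a6b-led cluster had 137 to 272 CPM and the Rpl3l-led one 408 to 686 CPM, ranges that did not overlap, while the Dntt-led cluster reached from 91.7 to 317 CPM. Mesenchymal-like cells stood at a median of 62.9 CPM, and granulocyte-monocyte progenitor-like cells at 18.5 CPM. At the ratio of Tgfbr2 to the B-cell marker Cd79a in B-cell-like cells, progenitor-like cells would have 13.7 of the 18.7 CPM measured over all libraries and the RatNP-3b cluster 21.2 of 28.4 CPM, so these lowest levels lay near that of stray B-cell RNA. Macrophage-like cells, at 298 CPM, were far above the 22.1 CPM given by that ratio.

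Bmpr1a, the type I receptor for BMP2 and BMP4, was in contrast nearly a stromal transcript. Mesenchymal-like cells ranged from 26.7 CPM in TO 4d 24h to 60.5 CPM in TO 2d 4h, with a median of 43.0 CPM. They exceeded endothelial-like cells, at 18.2 CPM, in 7 of 7 libraries by 1.61 on the log2 scale. Of the 194 Bmpr1a UMIs in the endothelial-like class, the 84 pericyte-like cells held 177 (63.3 CPM pooled), and its other 376 cells had 2.45 CPM. The 4 blood classes in the order had medians below 1 CPM. The second Igha-led cluster, left out of the order, had 30 Bmpr1a UMIs and a median of 5.41 CPM, from 0 to 16.0 CPM. It was not a cluster of blood-cell genes alone. Mgp, Bglap and Tagln were also among its leading genes, and 9 of 12 mesenchymal markers were raised in it.

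Bmp2 and Bmp4, ligands that can induce bone, differed in where else they were found. Bmp2 had a median of 63.6 CPM in mesenchymal-like and 37.5 CPM in endothelial-like cells, higher in the former in 6 of 7 libraries (adjusted p = 0.160, exact sign-flip test). Macrophage-like cells followed at 8.59 CPM, below endothelial-like cells in 7 of 7 libraries, and the Siglech cluster at 4.88 CPM. In monocyte-like cells Bmp2 ranged from 1.72 to 4.67 CPM in 7 libraries, and TOE 4d 24h had 0 UMIs of Bmp2 in 647 such cells (upper 95% limit 0.356 CPM).

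Bmp4 had medians of 27.3 CPM in mesenchymal-like and 16.5 CPM in endothelial-like cells, which could not be ordered, with the former higher in 4 of 7 libraries (log2 difference 0.30). B-cell-like cells followed and held 2224 of 3387 Bmp4 UMIs, or 65.7%. Their level was 3.25 CPM in TO 2d 0h, 8.72 in TO 2d 4h, 8.84 in TO 4d 4h, 5.10 in TO 4d 24h, 5.51 in TOE 2d 4h, 4.07 in TOE 2d 24h, 10.8 in TOE 4d 4h and 1.17 in TOE 4d 24h. This exceeded the neutrophil-like level, at a median of 0.403 CPM, in 8 of 8 libraries by 3.71 on the log2 scale (adjusted p = 0.0557, exact sign-flip test). The ratio of Bmp4 to Col1a1 in mesenchymal-like cells would give B-cell-like cells only 0.00496 to 0.182 CPM, so the measured level was above that value in all 8 libraries. Of B-cell-like cells, 1768 of 59197 had a Bmp4 UMI.

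Within the B lineage, Bmp4 pooled over libraries differed between clusters, which were made up of different libraries. The cluster led by Rag1, a component of the recombinase that assembles antibody genes, had 17.3 CPM (95% Poisson interval 15.9 to 18.7) from 603 UMIs in 8966 cells. The Dntt-led cluster, Dntt being an enzyme of early B-cell precursors, had 7.62 CPM, and the Ms4a1-led cluster, Ms4a1 encoding the mature B-cell antigen CD20, had 0.456 CPM. In TO 2d 4h, TO 4d 4h, TOE 2d 4h and TOE 4d 4h, the Rag1-led cluster had 15.8, 18.6, 18.1 and 18.5 CPM. These libraries, all taken at 4 h, held most of that cluster, and the other 4 had 32 to 178 of its cells and 0 to 10 Bmp4 UMIs each. The cluster led by Rpl3l had 3.87, 5.93 and 4.70 CPM in TO 2d 0h, TO 4d 24h and TOE 2d 24h, from 3626, 3323 and 4184 cells. Each 4-h library held only 33 to 60 of its cells. For these clusters, cluster and library can therefore not be told apart.

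Inhba encodes the subunit of which activin A is made, a ligand that signals through the TGF-β set of Smads. Its highest level was in the defensin-led RatNP-3b cluster: 324 CPM in TO 2d 0h, 354 in TO 2d 4h, 274 in TO 4d 4h, 326 in TO 4d 24h, 380 in TOE 2d 4h, 467 in TOE 2d 24h, 243 in TOE 4d 4h and 156 in TOE 4d 24h. TOE 2d 24h was the highest and TOE 4d 24h the lowest, and both groups overlapped. The level exceeded that of neutrophil-like cells in 8 of 8 libraries by 1.59 on the log2 scale (adjusted p = 0.0557, exact sign-flip test). The RatNP-3b cluster held 43.4% and neutrophil-like cells 28.7% of all Inhba UMIs, against 15.2% in mesenchymal-like cells.

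Along the neutrophil lineage the level was not uniform. Cells of the granulocyte-monocyte progenitor-like class, led by the granule protease gene Prtn3, had 34.6 CPM over all libraries, against 315 CPM in the RatNP-3b cluster. The neutrophil-like cluster led by Ngp, Lcn2 and Cd177, genes of secondary granules and their membranes, had 167 CPM. The neutrophil-like clusters led by Nlrp12 and by Hcar2 had 24.5 and 9.68 CPM. In every one of the 8 libraries the RatNP-3b cluster had the highest of these 5 values and the Ngp-led cluster the next.

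**Figure D2:**
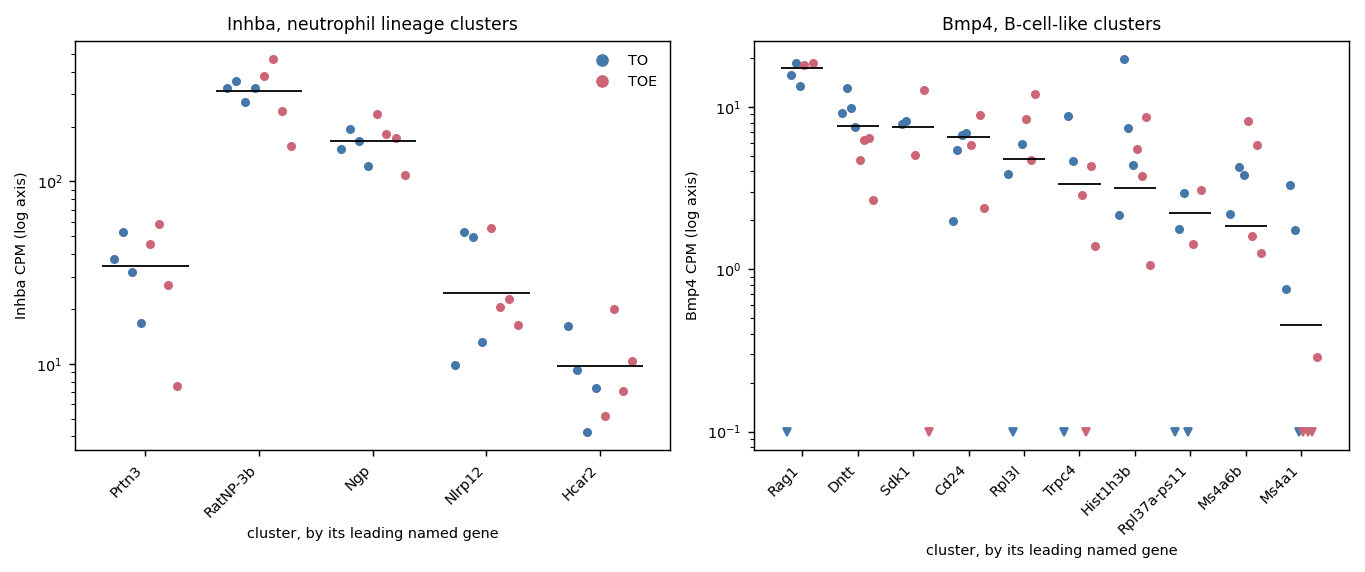
CPM (log axis) of Inhba in clusters of the neutrophil lineage and of Bmp4 in B-cell-like clusters. Each point is 1 library with at least 50 cells in the cluster, coloured by group, triangles at the lower edge are libraries with 0 UMIs, and bars give the pooled value. The highest pooled values are 315 CPM of Inhba in the RatNP-3b cluster and 17.3 CPM of Bmp4 in the Rag1-led cluster, while single libraries of other B-cell-like clusters overlap it.

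Grem1, which encodes gremlin 1, was low and mainly stromal. Mesenchymal-like cells had a median of 18.3 CPM, from 11.8 CPM in TO 4d 4h to 39.8 CPM in TO 2d 4h. They held 60.5% of its UMIs, and the far more numerous B-cell-like cells held 29%. B-cell-like cells, with a median of 1.27 CPM, were lower in 8 of 8 libraries, by 4.17 on the log2 scale. The B-cell-like level was again above the 0.00570 to 0.454 CPM given by the ratio to Col1a1 in each library. It was highest in TO 4d 4h, at 3.15 CPM from 143 UMIs.

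The stroma was then divided further, with subclusters described over all libraries together, since several came mostly from 1 library. The marrow reticular-like subcluster (61 cells, led by C6) had 164 CPM of Bmp4 (141 to 190), 99.0 CPM of Bmp2 and 120 CPM of Grem1 (99.8 to 143). A subcluster of 30 cells led by Dmp1, a gene of osteocytes, had 240 CPM of Bmp2 (208 to 275) and 181 CPM of Bmp4 (153 to 211) but 1 UMI each of Grem1 and Inhba. The Ndnf-led subcluster had 117 CPM of Bmp2 and 76.5 CPM of Grem1, but 129 of its 144 cells came from TOE 2d 24h and Bmp2 was 36.2 CPM without that library. The Adamts18-led osteoblast-like subcluster of 148 cells, of which TOE 2d 24h gave 98, had 97.3 CPM of Bmp2.

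Inhba was higher in other subclusters. It reached 133 CPM in the fibroblast-like, 141 CPM in the chondrocyte-like, 144 CPM in the pericyte-like and 150 CPM in the Adamts18-led osteoblast-like subcluster, in which Tgfb2 stood at 188, 250, 202 and 254 CPM. TOE 4d 4h gave 664 of the 1063 Inhba UMIs of the Adamts18-led subcluster from 26 of its 148 cells, and without that library its level was 68.0 CPM. Without the library with most Inhba UMIs, the levels were 101 CPM in the fibroblast-like, 120 CPM in the chondrocyte-like and 124 CPM in the pericyte-like subcluster. In the osteoblast-like subclusters led by Fign and by Bglap, the latter the gene of osteocalcin, Inhba was 13.4 and 10.3 CPM. The endothelial-like subcluster led by Ccl21 had 5.17 CPM of Inhba and 15.9 CPM of Tgfb2. Of the 87 pericyte-like cells, 84 had been counted in the endothelial-like class, and they held 558 of the 922 Tgfb2 and 395 of the 496 Inhba UMIs of that class.

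**Figure D3:**
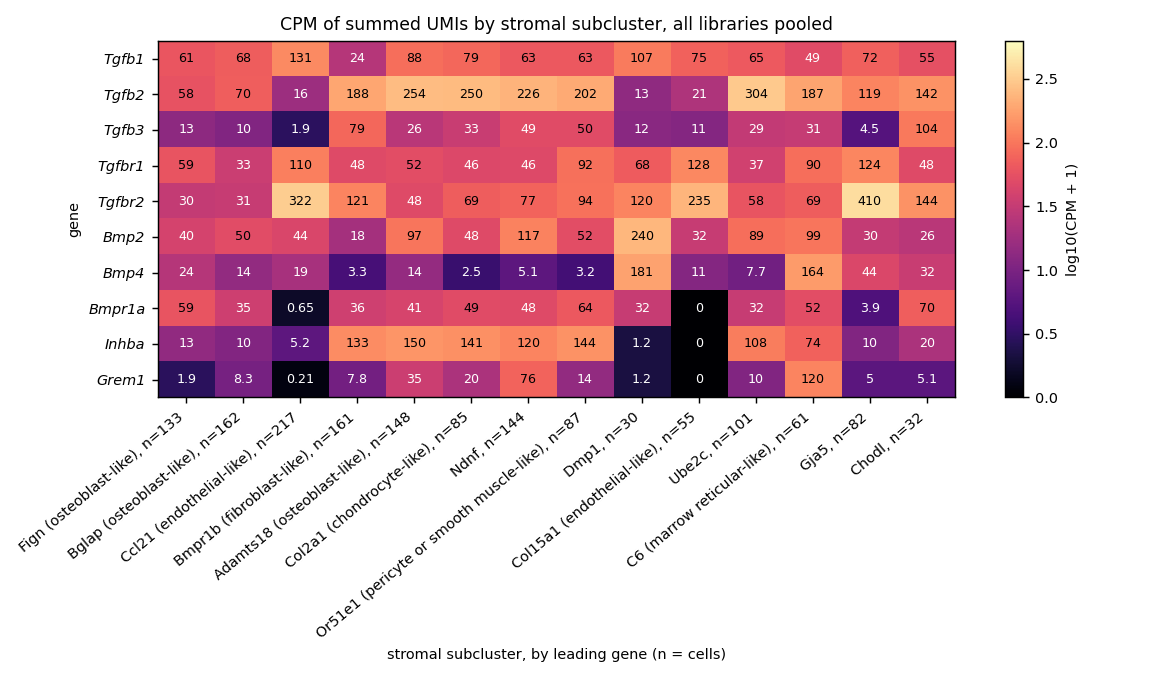
CPM of summed UMIs of each gene (rows) in stromal subclusters (columns, named by leading gene with the number of cells), all libraries pooled, with the value printed and log10 of the value plus 1 as colour. Subclusters led by blood genes or with fewer than 20 cells are not drawn. Bmp4 is highest in the Dmp1-led (181 CPM) and C6-led (164 CPM) columns, where Inhba is 1.16 and 73.6 CPM.

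TOE was compared with TO in mesenchymal-like cells of the matched pairs, and a gene was called where it had at least 20 UMIs over the pair and its CPM differed at least 2-fold. In the 2d 4h pair, 1 of 10 members was higher in the TOE library, Inhba, while 4.26% of 9483 genes were. Grem1 was the 1 member that was lower, as were 6.06% of the genes. In the 4d 4h pair, 3 members were higher (Bmp2, Bmp4 and Inhba, against 5.01% of 13049 genes) and 1 was lower (Tgfb3, against 6.13%). In the 4d 24h pair, 2 were higher (Tgfb2 and Inhba, against 14.3% of 10762 genes) and 2 were lower (Bmp2 and Bmp4, against 3.86%).

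**Figure D4:**
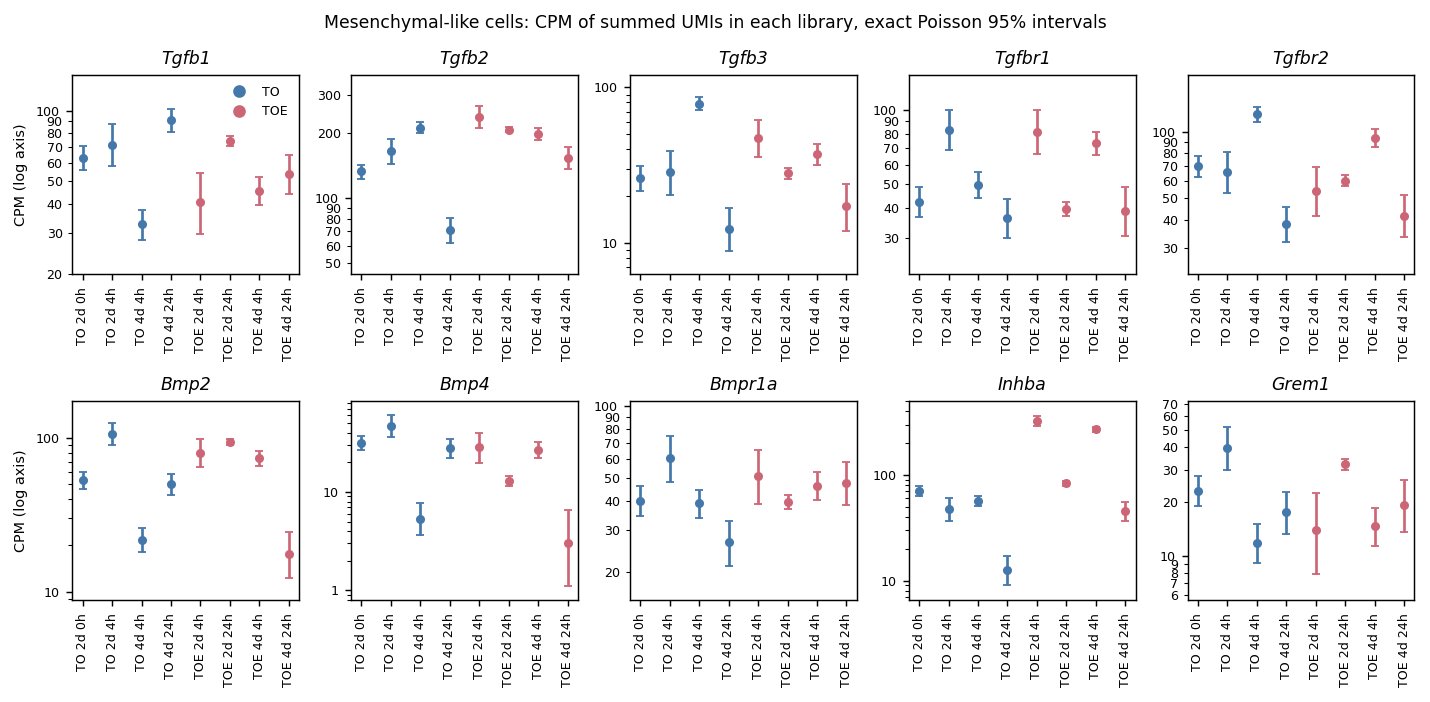
CPM (log axis) of each gene in mesenchymal-like cells of the 8 libraries, with exact Poisson 95% intervals that cover counting error only. Inhba is higher in the TOE library of each matched pair, and Bmp4 is lowest in TO 4d 4h (5.37 CPM) and TOE 4d 24h (3.03 CPM).

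Inhba was the only member called in all 3 pairs, higher in the TOE library each time. The share of all genes called higher in all 3 pairs was not counted, so this has no background beside it. Mesenchymal-like cells had 71.0 CPM in TO 2d 0h, 47.9 in TO 2d 4h, 56.4 in TO 4d 4h, 12.7 in TO 4d 24h, 324 in TOE 2d 4h, 83.3 in TOE 2d 24h, 272 in TOE 4d 4h and 45.4 in TOE 4d 24h. The 2 TOE libraries taken at 4 h stood above all others, but TOE 4d 24h was below 3 of the 4 TO libraries. The TOE level was 6.76 times the TO level in the 2d 4h pair (95% interval 5.18 to 8.94), 4.81 times in the 4d 4h pair (4.25 to 5.46) and 3.57 times in the 4d 24h pair (2.44 to 5.31). Over 4 TOE against 4 TO libraries the difference was 1.77 on the log2 scale, with p = 0.143 (adjusted p = 0.536) in an exact two-sided permutation test. Over the 3 matched pairs the mean difference was 2.28 ± 0.460 on the log2 scale (SD), higher in 3 of 3, and p = 0.25 in an exact two-sided sign-flip test, the smallest p that 3 pairs allow. In edgeR's quasi-likelihood test on the mesenchymal-like sums of all 8 libraries, with day and 4 h against other hours as terms, the difference was 1.6 on the log2 scale (unadjusted p = 0.00693, adjusted p = 1). With the matched pair as a block, over 6 libraries, it was 2.24 (unadjusted p = 0.000117, adjusted p = 0.839 by edgeR). With these terms edgeR called 0 of 16418 genes (0%), and with the block 0 of 14336, while 386 and 488 genes had an unadjusted p below 0.05.

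In several libraries of both groups few cells held most of the Inhba molecules, so the intervals, which treat molecules as independent, are too narrow. In TOE 2d 4h, 3 of 56 mesenchymal-like cells held at least 50% of the 376 Inhba UMIs, and in TOE 4d 4h 5 of 171 cells did so of 1288. The same held for 3 of 117 cells in TO 2d 0h and for 5 of 58 cells in TO 2d 4h, of 330 and 65 UMIs. The share of cells with an Inhba UMI, with the TO library first, was 39.7 and 32.1% for the 2d 4h pair, 39.4 and 44.4% for the 4d 4h pair, and 25.5 and 45.6% for the 4d 24h pair. Without the subclusters led by blood-cell genes, which held 86 of 241 cells in TO 4d 4h, the shares for the 4d 4h pair were 48.4 and 45.5%, in the opposite order. Without the 5 cells with most Inhba UMIs in each library, the TOE level was 2.44, 3.00 and 3.31 times the TO level in the 2d 4h, 4d 4h and 4d 24h pairs. The highest cell alone held 29.5% of the UMIs in TOE 2d 4h and 18.6% in TOE 4d 4h.

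**Figure D5:**
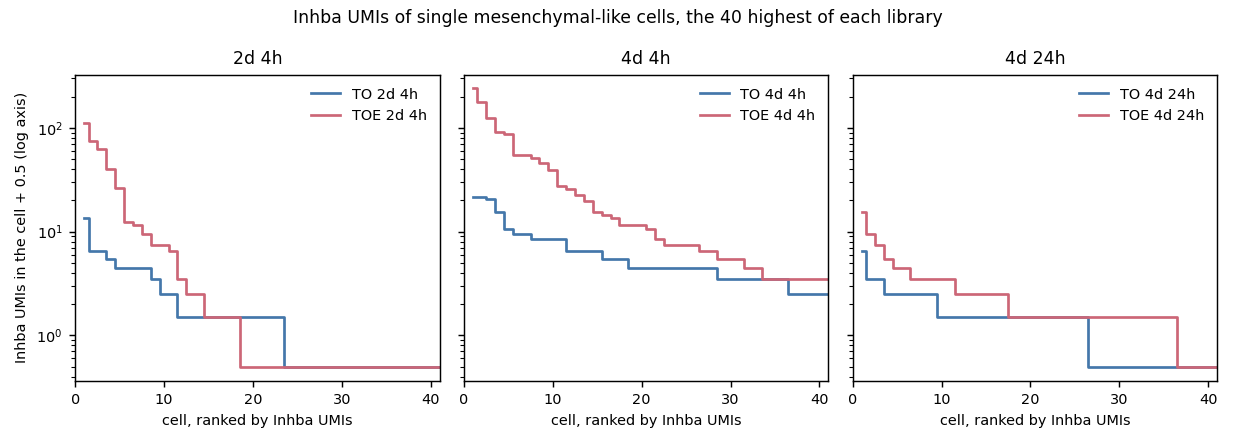
Inhba UMIs plus 0.5 (log axis) of the 40 mesenchymal-like cells with most Inhba UMIs in each library of the matched pairs, ranked from the highest. The first cells of TOE 2d 4h and TOE 4d 4h lie far above those of the TO libraries, and the lines of 2d 4h cross further down the ranking.

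Within subclusters of these pairs, cells were few. In the fibroblast-like subcluster Inhba was 62.6 CPM in 112 cells of TO 4d 4h and 331 CPM in 25 cells of TOE 4d 4h. In the Adamts18-led osteoblast-like subcluster it was 45.8 CPM in 7 and 544 CPM in 26 cells of those libraries. These ratio intervals lay at 4.45 to 6.29 and 7.15 to 21.3. The marrow reticular-like subcluster had 17.3 CPM in 10 cells of TO 2d 4h and 374 CPM in 7 cells of TOE 2d 4h. In the pericyte-like subcluster it was 126 CPM in 8 cells of TO 2d 4h and 51.6 CPM in 5 cells of TOE 2d 4h, a ratio interval of 0.119 to 1.15. On day 4 at 4 h it was 117 CPM in 22 and 176 CPM in 16 pericyte-like cells, TO first (1.09 to 2.08). The endothelial-like Ccl21-led subcluster had 17.3 and 3.35 CPM in that pair (0.0212 to 0.854). The Fign-led subcluster had 5 and 0 UMIs for the 2d 4h pair, 3 and 9 for the 4d 4h pair, and 0 and 4 for the 4d 24h pair. In the Bglap-led subcluster it was 10.7 CPM in TO 4d 24h and 13.5 CPM in TOE 4d 24h, a ratio interval of 0.456 to 3.00, and in the marrow reticular-like one 16.2 and 60.4 CPM (0.859 to 33.9).

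Bmp2 and Bmp4 differed between the groups in opposite directions in the pairs of day 4. Mesenchymal-like Bmp2 was 53.3 CPM in TO 2d 0h, 106 in TO 2d 4h, 21.7 in TO 4d 4h, 50.2 in TO 4d 24h, 80.2 in TOE 2d 4h, 95 in TOE 2d 24h, 73.8 in TOE 4d 4h and 17.7 in TOE 4d 24h. Bmp4 was 31.8, 47.2, 5.37, 27.9, 28.4, 12.9, 26.8 and 3.03 CPM in the same order of libraries. TO 4d 4h and TOE 4d 24h were the lowest 2 libraries for both genes. At 4d 4h the TOE level was 3.41 times (2.76 to 4.22) the TO level for Bmp2 and 4.98 times (3.33 to 7.69) for Bmp4, and at 4d 24h it was 0.352 times (0.237 to 0.509) and 0.109 times (0.0388 to 0.246).

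The makeup of the mesenchymal-like class differed between the same libraries. In TO 4d 4h, 46.5% of its cells were fibroblast-like and 33.2% belonged to an Lcn2-led subcluster with neutrophil genes, and 0.830% were marrow reticular-like. In TOE 4d 4h the largest parts were the Fign-led (17.5%), Adamts18-led (15.2%), fibroblast-like (14.6%), chondrocyte-like (14.0%) and Chodl-led (11.1%) subclusters. TO 4d 24h had 61.8% in the Bglap-led osteoblast-like subcluster. TOE 4d 24h had 30.4% in the Fign-led and 11.4% in the Bglap-led osteoblast-like subclusters, with 29.1% chondrocyte-like and 19.0% marrow reticular-like cells. Fibroblast-like cells had 17.3 CPM of Bmp2 in TO 4d 4h and 14.1 CPM in TOE 4d 4h, a ratio interval of 0.404 to 1.52, whereas the Adamts18-led subcluster had 61.1 and 119 CPM (1.21 to 3.28). Bmp4 in that pair was 30.7 and 29.3 CPM in the Fign-led subcluster (0.423 to 2.30), and 0.487 and 8.25 CPM, from 2 and 7 UMIs, in fibroblast-like cells (3.22 to 167). At 4d 24h, the marrow reticular-like subcluster had 36 UMIs of Bmp4 in 8 cells of TO and 0 UMIs in 15 cells of TOE. The Bglap-led subcluster had 16.1 CPM of Bmp4 in 63 TO cells and 1.92 CPM in 9 TOE cells. The whole class held only 6 Bmp4 UMIs in TOE 4d 24h. Bmp2 at 4d 24h was 52.4 and 25.0 CPM in the Bglap-led (0.247 to 0.848) and 22.6 and 23.5 CPM in the Fign-led subcluster (0.275 to 5.80). The part of the makeup in the class differences of Bmp2 and Bmp4 was not tested.

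The other calls in mesenchymal-like cells were each made in 1 pair. Grem1 was 39.8 CPM in TO 2d 4h and 13.8 CPM in TOE 2d 4h, from 54 and 16 UMIs, of which 1 cell held 31.5% and 56.2%. The ratio was 0.346 (0.185 to 0.614), and 0.215 without the highest cell of each library. Without the 5 highest cells it was 0.204 (0.0219 to 0.933), from 11 and 2 UMIs, under the 20 a call needs. Without the subclusters led by blood-cell genes the log2 difference was -0.94, no longer 2-fold. The ratio was 1.23 (0.866 to 1.75) in the 4d 4h pair, with 1.10 (0.712 to 1.7) in the 4d 24h pair. Within the marrow reticular-like subcluster, however, Grem1 was 46.1 CPM in TO and 117 CPM in TOE for the 2d 4h pair (0.989 to 6.95), and 162 and 25.9 CPM for the 4d 24h pair (0.0527 to 0.414). At 4d 24h the Bglap-led subcluster had 35 UMIs in 63 TO cells and 0 in 9 TOE cells (upper limit of the ratio 0.477). All 56 mesenchymal-like Grem1 UMIs of TO 4d 24h lay in 8 cells. Without the 5 highest cells 3 UMIs remained, so these intervals are too narrow. Tgfb3 at 4d 4h was 0.472 times the TO level for the whole class. Within fibroblast-like cells it was 61.3 CPM in TOE against 95.7 CPM in TO, a ratio interval of 0.470 to 0.856. These values do not show the direction in other subclusters. Fibroblast-like cells were 46.5% of the class in the TO library but 14.6% in the TOE library. The part of this shift in the class difference was not tested. The class difference was no longer 2-fold with doublets kept or at other clustering resolutions. Outside the class, endothelial-like cells went the other way, with 15.2 CPM in the TO library and 26.9 CPM in the TOE one. Tgfb2 at 4d 24h was 2.16 times the TO level (1.81 to 2.58), in a pair whose median gene was 0.28 higher on the log2 scale, and it was not called relative to that gene. The 3 subclusters of the class with at least 5 cells in both libraries had lower Tgfb2 values in TOE: 50.2 and 15.4 CPM in the Bglap-led one (0.129 to 0.626), 259 and 207 CPM in the marrow reticular-like one (0.502 to 1.30), and 15.1 and 12.8 CPM, from 2 and 6 UMIs, in the Fign-led one. Chondrocyte-like cells, 0% of the class in the TO and 29.1% in the TOE library, had the 250 CPM given above, a value over all libraries together. The part of this makeup in the class difference of Tgfb2 was not tested. Tgfb1, Tgfbr1, Tgfbr2 and Bmpr1a differed less than 2-fold in every pair.

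Outside the mesenchymal-like class, the members gave 167 combinations of gene, class and pair with at least 20 UMIs, of which 6 were called higher and 18 lower in the TOE library, against 7.31% higher and 4.79% lower over all genes. The lower calls were 5 of Bmp2, 3 each of Tgfb2, Tgfbr2 and Inhba, and 2 each of Tgfb1 and Bmp4, and the higher ones 3 of Inhba and 1 each of Tgfbr1, Bmp2 and Bmp4. In monocyte-like cells Inhba (TO, then TOE) was called higher in both 4-h pairs, 1.34 and 4.27 CPM at 2d 4h (5.92% of genes were at least 2-fold higher) and 1.24 and 2.91 CPM at 4d 4h (3.53% of genes). At 4d 24h the values were 0.962 and 0.869 CPM, and TO 2d 0h, at 4.36 CPM, was above all TOE libraries. B-cell-like cells, far from the neutrophil lineage, had 0.953 and 1.43 CPM for the 2d 4h pair and 1.21 and 1.51 CPM for the 4d 4h pair, so the TO values of monocyte-like cells could not be told from that background. In the RatNP-3b cluster Inhba (TO, then TOE) was 354 and 380 CPM at 2d 4h, 274 and 243 CPM at 4d 4h, and 326 and 156 CPM at 4d 24h, TO first, the last a ratio of 0.479 (0.433 to 0.530) when 6.38% of the genes were at least 2-fold lower. In T/NK-cell-like cells Tgfb1 was 317 CPM in the TO and 156 CPM in the TOE library at 2d 4h, a ratio interval of 0.402 to 0.604, when 2.72% of genes were at least 2-fold lower.

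B-cell-like Tgfbr2 was 401 CPM in TO 4d 24h and 166 CPM in TOE 4d 24h, a ratio of 0.413 (0.402 to 0.424), and Bmp4 there was 5.10 and 1.17 CPM. In that pair 6.62% of genes in B-cell-like cells were at least 2-fold lower. Different clusters made up the class in these libraries: the Rpl3l-led cluster held 3323 of 6155 B-cell-like cells in TO 4d 24h and 49 of 6943 in TOE 4d 24h, where the Ms4a6b-led cluster held 3884. Tgfbr2 was also lower in TOE 4d 24h within each of the 10 B-cell-like clusters, with 559 and 477 CPM (TO first) in the Rpl3l-led, 272 and 171 CPM in the Ms4a6b-led, 618 and 337 CPM in the Rag1-led and 223 and 91.7 CPM in the Dntt-led cluster.

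The 8 libraries also allow 4 against 4 comparisons of group, day and hour of collection, made for each member in the class where it was highest. None of the 30 exact two-sided permutation tests passed an adjusted p of 0.05, the smallest p this design allows being 0.0286, and 1 had an unadjusted p below 0.05. That 1 was Tgfb3 in mesenchymal-like cells, whose mean was 1.17 higher on the log2 scale in the 4-h libraries (p = 0.0286, adjusted p = 0.429, permutation test). A second set of 30 tests took all members in mesenchymal-like cells. Of these, 2 had an unadjusted p below 0.05 and 0 passed after adjustment. They were Tgfb3 again and Tgfbr1, which was 0.85 higher at 4 h without overlap (p = 0.0286, adjusted p = 0.429, permutation test). The share of all genes in mesenchymal-like cells without overlap between these libraries was not counted, so neither has a background beside it. In the first set, Tgfbr1 in macrophage-like cells was 0.72 higher at 4 h, and Bmp2 in mesenchymal-like cells was 1.23 lower on day 4. Inhba in the RatNP-3b cluster was 0.645 lower on day 4. Each had p = 0.0571 (permutation tests), with overlapping groups. Cluster makeup also differed by library. The Rpl3l-led B-cell-like cluster had 33 to 60 cells in each 4-h library, 3323 to 4184 in TO 2d 0h, TO 4d 24h and TOE 2d 24h, and 49 in TOE 4d 24h. Hour of collection can therefore not be told apart from other differences between libraries.

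Of 94 other genes of the pathway in lists drawn up for this work, 88 had enough molecules to be placed, and 39 of these were highest in mesenchymal-like and 20 in endothelial-like cells. Genes listed only as targets, and markers such as Col1a1, were open to use in clustering, so not all of these placements are independent of the classes. In mesenchymal-like cells at 2d 4h, 4 of 64 such genes with at least 20 UMIs were at least 2-fold higher in the TOE library and 4 were lower, against the 4.26 and 6.06% of all genes given above. The highest ratios were those of the transcription factor gene Msx1 (2.70 on the log2 scale) and of Id1 (1.46), an inhibitor of differentiation, both induced by BMPs, and the lowest those of Bmp6 (-1.64) and of the cell cycle inhibitor gene Cdkn2b (-2.39). The Smad list held none of either kind in this pair.

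At 4d 4h, 8 of 76 were higher and 11 lower, against 5.01 and 6.13% of all genes. The ligand gene Bmp8a (3.34) and the homeobox gene Dlx5 (2.13) had the highest ratios, and Bmper (-2.36), which encodes a BMP-binding regulator, and Lrrc32 (-1.79), which encodes a carrier of latent TGF-β, the lowest. Of the latency and activation genes, 5 of 13 were lower, including Thbs1, Fbn1 and Itgav. At 4d 24h, 13 of 65 were higher and 2 lower, against 14.3 and 3.86% of all genes, led by Acta2 (4.79) and Postn (3.64) on one side and Bmp6 (-1.82) and Ltbp1 (-1.28) on the other. Of the BMP target list, 2 of 12, 5 of 12 and 5 of 12 tested genes were higher in the 3 pairs and 0 were lower. Of the TGF-β target list, 0, 0 and 5 of 15 were higher and 3, 3 and 0 lower, in a 4d 24h pair whose median gene was 0.28 higher on the log2 scale. Beside these counts, 4.26, 5.01 and 14.3% of all genes were higher in the 3 pairs and 6.06, 6.13 and 3.86% lower. The part of the stromal subcluster shares given above in these counts was not tested.

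Finally, the genes whose levels ran most nearly with each member were sought among 16374 genes over 101 sums of a class in a library, which share libraries and depth, so the correlations are descriptions only. Bmpr1a ran with Tbx15, Ddr2 and Tbx18 (Pearson's r of log2(CPM + 1) 0.97 for each). Tgfb2 ran with Loxl2, Afap1 and Map1a (0.94, 0.93 and 0.93), Tgfb3 with Aldh1l2, LOC120094341 and Ptpn3 (0.94 each), and Grem1 with Tenm4, Slc2a10 and Zfhx4 (0.92, 0.90 and 0.90). Bmp2 ran with Rbfox2, Acvr1 and Phldb1 (0.92, 0.91 and 0.91) and Bmp4 with Fhip1a, Rapgef4 and Fermt2 (0.89, 0.87 and 0.86). For Inhba they were Qsox1, Septin5 and Anxa1 (0.88, 0.86 and 0.85), and for Tgfb1 Cldnd1, Gpr183 and Ifngr1 (0.84, 0.83 and 0.81). Tgfbr1 and Tgfbr2 shared Xpr1 (0.84 and 0.89) among their nearest genes, the others being Tulp4 and Zswim6 for Tgfbr1 (0.81 and 0.79) and Snn and Ythdf3 for Tgfbr2 (0.89 and 0.88).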

How the data were processed

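The authors aligned 10x Genomics 3′ reads with Cell Ranger and deposited UMI counts per gene and called cell, which are whole-number counts with no normalization. The submitters' processing notes list Cell Ranger 9.0.0 and the builds mRatBN7.2 and GRCh38, with no role given. Of the samples, 8 were analysed, and TO 2d 24h was not analysed here. Cells under 200 genes or over 20% mitochondrial UMIs were dropped, and doublets were removed with Scrublet at a score of 0.25. Cells were clustered with scanpy 1.11.5 without the members and the other pathway genes, except those listed only as targets or used as markers. Clusters were named from marker lists, with naming rules settled after the clusters were seen. UMIs were summed per class and library and divided by all UMIs of that class (CPM). Levels carry exact Poisson intervals and ratios exact conditional intervals, which cover counting error only. Classes were compared by exact sign-flip tests and groups of libraries by exact permutation tests, with Benjamini-Hochberg adjustment. The mesenchymal-like sums were also tested with edgeR 4.0.16 (quasi-likelihood, TMM, genes with at least 20 UMIs), added after the values were seen. The members and lists were chosen with earlier results of these data known. All 10 members are named, with the 3 genes most correlated with each and, per pair, the 2 highest and 2 lowest other pathway genes. The 2-fold calls were tested on simulated counts with 4-fold changes and Poisson error only. In each pair 100% of 200 changed genes were recovered, and 1.3 to 1.95% of unchanged genes were called. Spread between cells and libraries was not part of these counts, so the shares may not hold for the real pairs.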

Additional observations from a re-analysis of the deposited data

Results flagged for a closer look

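In T/NK-cell-like cells, Tgfb1 in TO 4d 4h (203 CPM) lay apart from the other 3 TO libraries by Dixon's ratio. It was 1 of 28 sets of 4 libraries tested, and chance marks about 1 in 20. In mesenchymal-like cells, the difference of TOE from TO on the log2 scale was 1.76 at 4d 4h and -1.49 at 4d 24h for Bmp2, and 2.30 and -3.10 for Bmp4. The difference between these pairs was not tested.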

How the results depend on the processing

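The labels give no replicate numbers, and a matched pair is 1 library against 1 of the same day and hour. The number of members that differed between TOE and TO in mesenchymal-like cells at an adjusted p of 0.05 was 0 in the permutation test, in the sign-flip test over pairs and in edgeR with group alone, with day and hour as terms and with the pair as block, all but the permutation test chosen after seeing the data. With 3 pairs the sign-flip test cannot give a p below 0.25, so its 0 was fixed in advance. The permutation test cannot go below p = 0.0286 before adjustment over 30 tests, so a single member could not have passed it. The number of neighbouring classes that differed at an adjusted p of 0.05 was 0 as reported, 13 with doublets kept, 12 at a clustering resolution of 0.5, 28 at a resolution of 2 and 28 with a prior count of 2. In mesenchymal-like cells, the number of members lower in TOE at 4d 4h went from 1 to 0 with doublets kept and at both resolutions. The number higher at 4d 24h went from 2 to 1 when centred on the median gene and without the 5 highest cells. The number lower at 2d 4h went from 1 to 0 without the 5 highest cells and without subclusters led by blood genes. The member was Grem1, whose ratio without the 5 cells was 0.204, from too few UMIs for a call. The settings on highest cells and blood genes were chosen after seeing the data. No call reversed. The low number of stromal cells per library, 56 to 466, limits every mesenchymal-like value.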
